A study of Homo sapiens with 8 samples.

Results

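Heat shock chaperones and their co-chaperones were examined in H460, an established line from a human lung carcinoma. The group holds 49 listed genes, grouped by their role in protein folding and chosen with earlier results of these data known. They cover HSP90, HSP70 and HSP110, J-domain proteins, small heat shock proteins, mitochondrial chaperones, the CCT chaperonin, co-chaperones and heat shock factors. Each gene was represented by its probe set with the highest mean signal over all 8 arrays, which gave values for 45 of them among 19775 genes in all. HSF2 and AHSA1 were not analysed here, nor were HSPA8 and TCP1, whose probe sets carry more than 1 gene symbol. Although the group is named for the cytosol, HSPD1, HSPE1, HSPA9, TRAP1 and DNAJA3 work in mitochondria and SERPINH1 in the endoplasmic reticulum.

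Resistant cells (4 arrays) had acquired TRAIL resistance during 6 months of daily exposure to TRAIL, a death receptor ligand that triggers apoptosis, at concentrations described as subtoxic. Sensitive cells (4 arrays) are the control of the same line, and both were grown in RPMI with serum. The labels do not say whether the resistant cells are 1 clone, nor how long before RNA extraction they last saw TRAIL. Resistance, exposure and time in culture therefore cannot be told apart. No label ties the 4 arrays of a group to separate cultures, and the p-values therefore reflect array-to-array variation that could be technical in part or whole. In RNA of whole cultures, fewer cells expressing a gene and less RNA per cell cannot be told apart.

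Chaperones bind unfolded or folding proteins and release them in cycles driven by ATP and by partner proteins. J-domain proteins deliver clients to HSP70 and stimulate its ATPase, exchange factors such as the HSP110 and BAG proteins reset it, and HSP90 takes over many kinases and steroid receptors with the help of its own co-chaperones. Many of these genes are transcribed more strongly when the heat shock factor HSF1 binds inverted repeats of the sequence nGAAn, the heat shock element, near their start sites. Tumour cells often carry high levels of chaperones.

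Stretches around the start sites are shown for the members whose promoter windows hold a complete heat shock element, because these genes split between those that rose and those that did not. A window covers 250 bases before to 50 bases after an annotated start site, from RefSeq on build GRCh38.p14, and 40 of the 45 genes had at least 1. The 3-unit element was searched as GAANNTTCNNGAA and, in the opposite phase, TTCNNGAANNTTC. Each is the reverse complement of the other, so both strands were covered. Matches are in capitals and may overlap each other, and the sequences run 5′ to 3′ on the strand of the gene.
DNAJA1, chr9:33025246-33025318, plus strand: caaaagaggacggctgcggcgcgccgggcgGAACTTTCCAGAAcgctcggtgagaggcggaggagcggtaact
CHORDC1, chr11:90223057-90223139, minus strand: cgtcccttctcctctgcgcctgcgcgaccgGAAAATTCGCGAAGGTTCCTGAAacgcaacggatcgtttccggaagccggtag
SERPINH1, chr11:75562147-75562219, plus strand: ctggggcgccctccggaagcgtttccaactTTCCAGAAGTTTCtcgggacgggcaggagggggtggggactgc
DNAJB6, chr7:157336843-157336915, plus strand: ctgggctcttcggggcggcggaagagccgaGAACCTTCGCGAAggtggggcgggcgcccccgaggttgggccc
HSP90AA1, chr14:102087090-102087162, minus strand: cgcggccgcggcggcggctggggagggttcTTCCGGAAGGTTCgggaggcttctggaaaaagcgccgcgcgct
HSP90AB1, chr6:44247748-44247873, plus strand: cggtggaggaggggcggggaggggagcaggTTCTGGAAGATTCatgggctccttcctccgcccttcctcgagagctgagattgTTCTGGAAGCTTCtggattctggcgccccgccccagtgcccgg
HSPD1, chr2:197500038-197500090, minus strand: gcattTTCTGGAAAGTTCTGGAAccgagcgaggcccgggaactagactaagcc
CHORDC1 holds 3 overlapping elements, HSP90AB1 holds 2 that lie apart, HSPD1 holds 2 that overlap, and the other four hold 1 each. In DNAJA1, CHORDC1, SERPINH1 and DNAJB6 the element lies in the window of the outermost annotated start. In HSP90AA1, HSP90AB1 and HSPD1 it lies in the window of another annotated start, inside the annotated gene. These genes span positions 102080742 to 102139749 of chromosome 14, 44246194 to 44253883 of chromosome 6 and 197486584 to 197500274 of chromosome 2 in turn. Which annotated start of a gene is its main one was not tested.

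More chaperone genes were higher than lower in resistant cells. Of the 45, 26 rose, 3 fell and 16 did not pass the test, limma with Benjamini-Hochberg adjustment over all 19775 genes at an adjusted p below 0.05. Among all genes 14.7% rose and 15.6% fell (30.3% either way). All 45 members lay above the level of the median probe set, where calls are more frequent, and among the 11641 genes above that level 23.3% rose and 23.9% fell (47.1% either way). Of the chaperone genes 57.8% rose and 6.67% fell. Because the members were chosen with earlier results of these data known, these shares describe the listed genes only. The members' median change was 0.35, resistant minus sensitive in log2(signal + 1) units, against -0.03 for all genes and -0.01 for the genes above the median level. All 4 resistant arrays lay above all 4 sensitive arrays for 28 members and below them for 3, and 16.5% and 17.4% of all genes did so (26.3% and 26.4% of those above the median level). Of these calls 17 rises and 2 falls passed under each of the 11 alternatives that could measure them and with each array left out. Restricted to probe sets whose names carry no suffix for possible cross-hybridisation, 32 members could be measured, of which 11 rose and 2 fell, with a median change of 0.27. The share of all genes called in that setting is not given here. Some of those probe sets, such as the ones of CHORDC1 and FKBP4, lay below the median level.

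**Figure D1:**
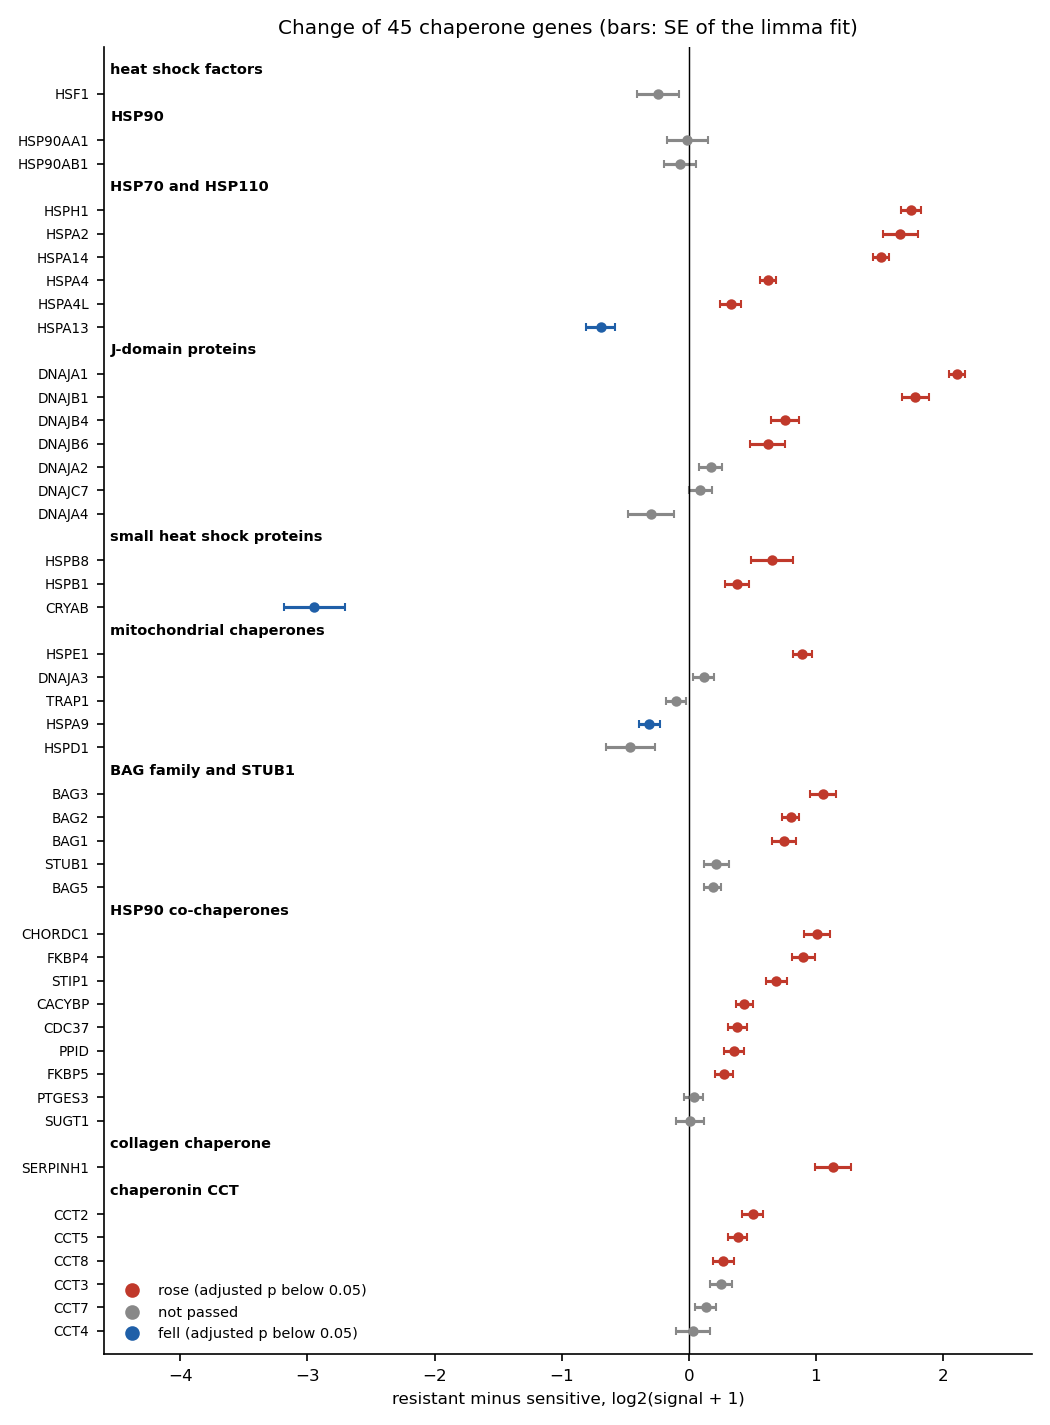
Difference of each of the 45 genes, resistant minus sensitive, in log2(signal + 1) units and grouped by role. Bars are standard errors from limma. HSP70 and HSP110, BAG and HSP90 co-chaperone genes lie mostly right of 0, both HSP90 genes at 0, and CRYAB alone beyond -2.

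HSF1, the master regulator of the heat shock response, did not pass. Its signals were 188, 156, 211 and 152 in resistant arrays, against 233, 159, 221 and 226 in sensitive arrays, so the groups overlap. The change was -0.24 ± 0.17 (limma SE, n = 4 per group, adjusted p = 0.336), and a second probe set gave 0.00 ± 0.16. Without sensitive array 2, the low one of its group, the change was -0.37 (adjusted p = 0.103).

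Of 6 measured genes of the HSP70 and HSP110 families, which do not include HSPA8, 5 rose and 1 fell, with a median change of 1.07. HSPH1, an HSP110 protein that serves HSP70 as a nucleotide exchange factor, had signals of 3899.7, 4115, 3680.5 and 3587 in resistant arrays, against 1184, 1137, 1154 and 1068 in sensitive arrays. Every resistant value exceeded every sensitive one more than 3-fold, and the change was 1.75 ± 0.08 (adjusted p = 1.08e-05). HSPA2, an HSP70 known mainly from the testis, had signals of 168, 186, 159.6 and 168 in resistant arrays, against 62.9, 44.6, 45.9 and 61.2 in sensitive arrays, a change of 1.66 ± 0.14 (adjusted p = 0.000157). The other HSP110 genes moved less. HSPA4 lay at 11.61 ± 0.03 in resistant and 10.99 ± 0.06 in sensitive cells (log2 mean ± SD, n = 4), a rise of 0.62 ± 0.06 seen in all 4 of its probe sets, which rose by 0.60 to 1.01. HSPA4L rose by 0.33 ± 0.08 (adjusted p = 0.0199), but its other bright probe set changed by -0.22 ± 0.13, and their mean by 0.05. Its call was lost on leaving out resistant array 1 or 3 (0.27 to 0.35 over the 8 arrays left out in turn, adjusted p at most 0.0596).

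HSPA14, a ribosome-associated member of the HSP70 family, gave a mixed picture. Its brightest probe set had signals of 1139, 1108, 1165 and 1214 in resistant arrays, against 391, 413, 403 and 409.6 in sensitive arrays, a change of 1.51 ± 0.06 (adjusted p = 1.06e-05). The other probe sets of the gene changed by 0.16 ± 0.12 and 0.01 ± 0.09, so the rise belongs to 1 probe set of 3, and the mean of the 3 changed by 0.56. HSPA13, an HSP70-related protein of the microsomal fraction, went the other way, with signals of 691, 729, 746 and 617 in resistant arrays, against 1052, 1349, 1019 and 1098 in sensitive arrays. Both of its probe sets fell, by 0.69 ± 0.11 and 0.64 ± 0.11.

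Among the J-domain proteins, 4 of 7 rose and none fell by the test, with a median change of 0.62. DNAJA1, a main partner of cytosolic HSP70, showed the greatest rise of the 45 genes. Its signals were 4488, 4536, 4617 and 4766 in resistant arrays, against 1039, 1059, 1043 and 1120.1 in sensitive arrays. The values within each group are tightly spaced and the groups lie about 4-fold apart, a change of 2.11 ± 0.06 (adjusted p = 2.78e-06), with 2.35 ± 0.10 for its second probe set. DNAJB1, the classical stress-induced HSP40, had signals of 1467, 1397, 1390.5 and 1831 in resistant arrays, against 422, 434, 470.2 and 429.9 in sensitive arrays, a change of 1.78 ± 0.11 (adjusted p = 4.08e-05). Its second probe set changed by 2.06 ± 0.09. DNAJB4 rose by 0.75 ± 0.11 and DNAJB6, which keeps aggregation-prone proteins soluble, by 0.62 ± 0.13. DNAJA2 (0.17 ± 0.09), DNAJC7 (0.09 ± 0.09) and DNAJA4 (-0.30 ± 0.18) did not pass, with adjusted p-values of 0.221, 0.514 and 0.288. With its probe sets averaged, DNAJA2 passed (0.36, adjusted p = 0.0466).

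**Figure D2:**
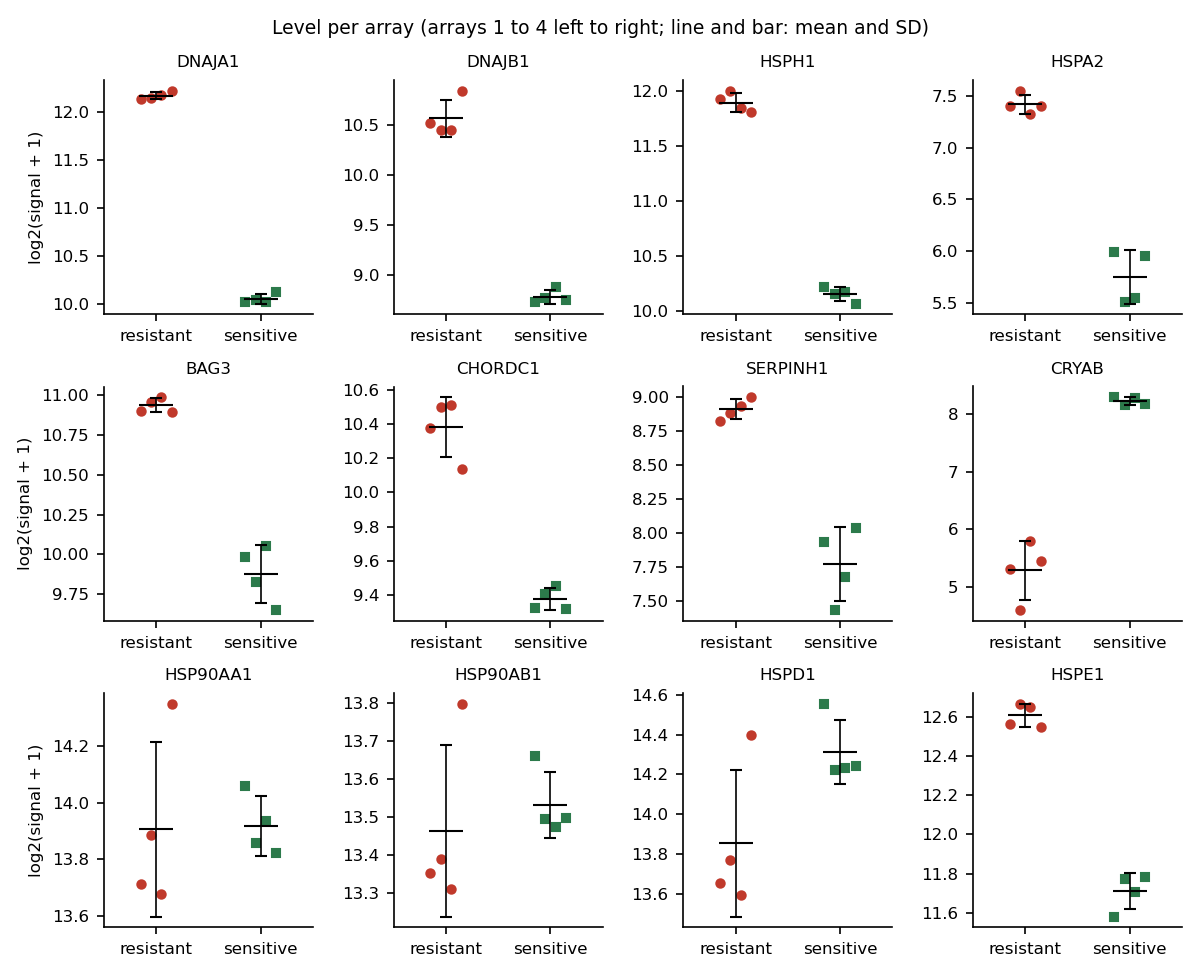
Level of 12 genes on each array as log2(signal + 1), with group means and SD (n = 4). The groups are far apart for DNAJA1, DNAJB1, HSPH1, HSPA2, BAG3, CHORDC1, SERPINH1, HSPE1 and CRYAB, while HSP90AA1, HSP90AB1 and HSPD1 overlap and resistant array 4 lies above the other resistant arrays.

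Small heat shock proteins, which hold unfolding proteins without using ATP, split into 2 that rose and 1 that fell. CRYAB, alpha-B-crystallin, had signals of 38.4, 23.1, 54.7 and 42.5 in resistant arrays, against 313, 285, 311 and 289 in sensitive arrays. It was the member with the greatest fall, by 2.95 ± 0.24 (adjusted p = 0.000146), from 1 probe set. HSPB8, the partner of BAG3 in selective autophagy, had signals of 1013, 1064, 969.7 and 955 in resistant arrays, against 453, 665, 737 and 737 in sensitive arrays. Its rise of 0.65 ± 0.17 (adjusted p = 0.0218) was lost on leaving out resistant array 1, 2 or 3 (0.49 to 0.72 over the 8 arrays left out in turn, adjusted p at most 0.0597), and its other bright probe set changed by 0.30. HSPB1, or HSP27, rose by 0.38 ± 0.09 (adjusted p = 0.0174), though not without sensitive array 3 (adjusted p = 0.0501). Its changes ran from 0.31 to 0.41 over the arrays left out in turn.

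The exchange factors and quality control partners of HSP70 rose in part: BAG1, BAG2 and BAG3 did, and BAG5 and STUB1 did not pass. BAG3, a stress-induced exchange factor, had signals of 1914, 1986, 2029 and 1903 in resistant arrays, against 1011, 906, 1063 and 802 in sensitive arrays. The groups do not overlap, and the change was 1.06 ± 0.10 (adjusted p = 0.000296). BAG2, an inhibitor of the ubiquitin ligase STUB1, had nearly the same signal on every resistant array, 1061, 1052, 1052 and 1054, against 574, 594, 640.1 and 613 in sensitive arrays. It rose by 0.80 ± 0.06 (adjusted p = 0.000136). BAG1 rose by 0.75 ± 0.09, with 1.03 ± 0.12 and 1.20 ± 0.19 for its other probe sets. STUB1 itself changed by 0.22 ± 0.10 (adjusted p = 0.157) and BAG5, whose groups do not overlap, by 0.19 ± 0.07 (adjusted p = 0.0695). The other probe sets of BAG5 changed by 0.50 ± 0.14 and -0.01 ± 0.12. The first of these rose in the limma fit over all probe sets (adjusted p = 0.0453). With limma's trend and robust prior STUB1 passed (adjusted p = 0.0433), as did BAG5 (adjusted p = 0.0170), which also passed after median centring (0.26, adjusted p = 0.0340) and with dim genes left out (adjusted p = 0.0221).

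Of 9 measured HSP90 co-chaperones 7 rose and the other two did not pass, with a median change of 0.38. CHORDC1, an HSP90-binding protein, had signals of 1331, 1448, 1463 and 1124 in resistant arrays, against 640.4, 679, 699 and 637 in sensitive arrays, a change of 1.01 ± 0.10 (adjusted p = 0.000368). FKBP4, an immunophilin of steroid receptor complexes, had signals of 1220.1, 1096, 1308 and 1068 in resistant arrays, against 605, 623, 668 and 608 in sensitive arrays. The groups do not overlap for either gene, and FKBP4 rose by 0.90 ± 0.09 (adjusted p = 0.000329). On their probe sets whose names carry no cross-hybridisation suffix, CHORDC1 changed by 0.28 (adjusted p = 0.574) and FKBP4 by 1.05 (adjusted p = 0.175), and neither passed. Both of these probe sets were dim, below the median level, at mean log2 levels of 4.48 and 4.14. The second bright probe set of FKBP4, which carries a suffix, rose by 0.74 ± 0.09. STIP1, which bridges HSP70 and HSP90, rose by 0.69 ± 0.08, with 0.79 ± 0.09 for its second probe set. CACYBP (0.44 ± 0.06), CDC37, which recruits kinases (0.38 ± 0.07), and PPID, a cyclophilin (0.35 ± 0.08), rose less, with adjusted p-values of 0.00200, 0.00725 and 0.0109. The call of PPID was lost with its probe sets averaged (0.23, adjusted p = 0.0651) and that of CACYBP without suffixed probe sets (0.82, adjusted p = 0.0787). FKBP5, the glucocorticoid-induced relative of FKBP4, rose by 0.28 ± 0.07 (adjusted p = 0.0183), but not without resistant array 1, sensitive array 3 or sensitive array 4 (0.26 to 0.30 over the arrays left out in turn, adjusted p at most 0.0566). PTGES3, the p23 protein that stabilises closed HSP90, changed by 0.04 ± 0.07 and SUGT1 by 0.01 ± 0.11. The other probe sets of SUGT1 above the median level changed by 0.25 ± 0.10, 0.49 ± 0.15 and 0.46 ± 0.17, and none of them passed.

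HSP90 itself did not pass the test in either cytosolic form, and its values depend on how the arrays are scaled. HSP90AA1, the stress-inducible form, had signals of 13431, 15148, 13081 and 20907 in resistant arrays, against 17080.1, 14829, 15664 and 14478 in sensitive arrays. HSP90AB1, the constitutive form, had signals of 10467, 10735, 10164 and 14252 in resistant arrays, against 12952, 11536, 11388 and 11563 in sensitive arrays. For both genes resistant array 4 was the highest of its group, and the groups overlap. The change was -0.01 ± 0.16 for HSP90AA1 (adjusted p = 0.970) and -0.07 ± 0.12 for HSP90AB1 (adjusted p = 0.743).

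These probe sets sit at the top of the signal range, where the resistant arrays differ among themselves. The 99.9th percentile of signal was 14775, 16030.4, 14452 and 22175 on resistant arrays 1 to 4, against 20786 to 25441 on the sensitive arrays. The median change of all 167 genes with a mean log2 level of 13 or more was -0.29, against 0.07 and 0.08 for levels of 9 to 11 and 11 to 12. Members in that top range were HSP90AA1, HSP90AB1, HSPD1, PTGES3 and CCT4. After quantile normalization, which gives every array the same distribution, HSP90AA1 turned to 0.33 and passed (adjusted p = 0.00475), HSP90AB1 turned to 0.16 and did not (adjusted p = 0.0862), and CCT4 passed at 0.23 (adjusted p = 0.0494). The dimmer probe sets of HSP90AA1 changed by 0.13 ± 0.15, 0.42 ± 0.13 and 0.41 ± 0.11, of which the last rose, and those of HSP90AB1 by 0.15 ± 0.11 and 0.25 ± 0.08. Without resistant array 4, the change was -0.16 for HSP90AA1 and -0.18 for HSP90AB1. The part of the top-end difference between arrays in these values was not tested beyond the scalings given.

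**Figure D3:**
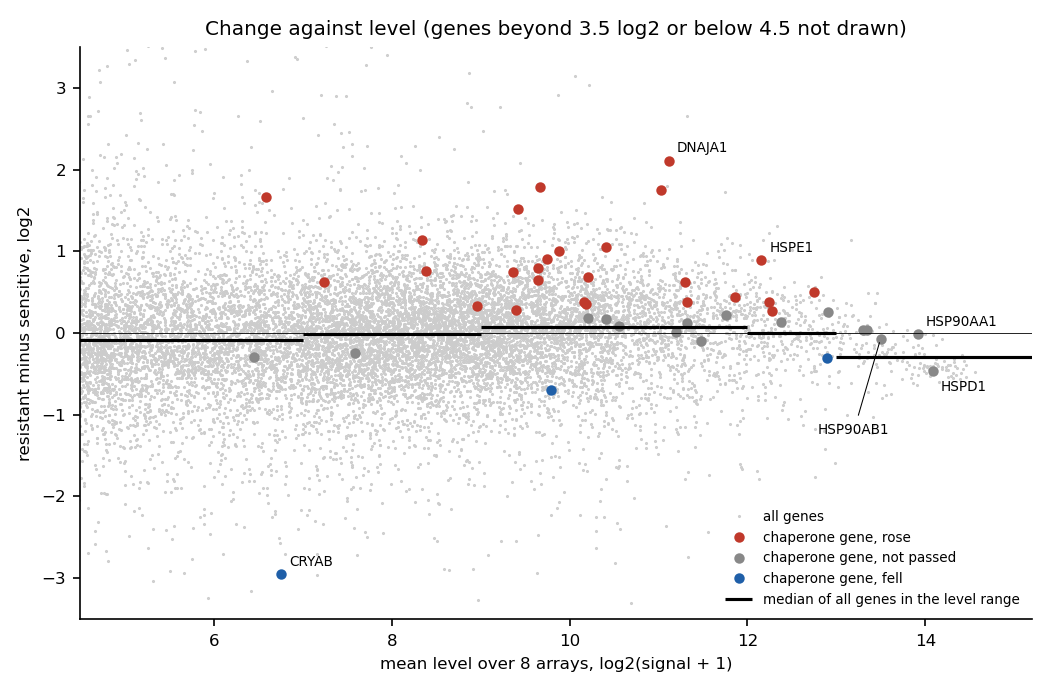
Change of all genes (grey) and of the chaperone genes against their mean level over 8 arrays, both on the log2(signal + 1) scale, with the median of all genes in each level range as a black line. The line drops to -0.29 at levels of 13 and above, where HSP90AA1, HSP90AB1 and HSPD1 lie.

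Mitochondrial chaperones moved in both directions. HSPD1 and HSPE1 encode HSP60 and its lid HSP10, which work together in the matrix, and the genes lie head to head on chromosome 2. HSPE1 had signals of 6037, 6489, 6427 and 5986 in resistant arrays, against 3062, 3496, 3347 and 3519.9 in sensitive arrays. The groups do not overlap, and HSPE1 rose by 0.89 ± 0.08 (adjusted p = 0.000170). HSPD1 had signals of 12882, 13985, 12389 and 21594 in resistant arrays, against 24076, 19128, 19253 and 19384 in sensitive arrays, a change of -0.46 ± 0.19 that did not pass (adjusted p = 0.121). It is in the top signal range described above. Without resistant array 4 it fell by 0.64 (adjusted p = 0.00729), and it passed at -0.54 with array weights (adjusted p = 0.0335). After quantile normalization it changed by -0.11 (adjusted p = 0.311). Its other bright probe sets changed by -0.38 ± 0.12 and -0.12 ± 0.14. HSPA9, mortalin, fell by 0.31 ± 0.08 (adjusted p = 0.0255). Its other probe sets changed by -0.18 ± 0.09, 0.26 ± 0.09 and -0.44 ± 0.11, of which the last fell in the fit over all probe sets. The call of HSPA9 was lost without any one of resistant arrays 1, 2 and 3 and sensitive arrays 2, 3 and 4. Over the arrays left out in turn the change ran from -0.37 to -0.28, with an adjusted p of at most 0.0721. The call was also lost with the replicate block, after median centring (-0.24) and with its probe sets averaged (-0.17). TRAP1, the mitochondrial HSP90 (-0.10 ± 0.08), and DNAJA3, the mitochondrial J-domain protein (0.12 ± 0.08), did not pass.

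The CCT chaperonin, a ring of related subunits that folds actin and tubulin, was measured for 6 subunits. Of these 3 rose and 3 did not pass, all 6 estimates were positive, and the median change was 0.26. CCT2 had signals of 7900.5, 7863, 7761 and 9412 in resistant arrays, against 5762, 5766, 5758 and 5901 in sensitive arrays, a rise of 0.50 ± 0.08 (adjusted p = 0.00334). CCT5 rose by 0.39 ± 0.08 (adjusted p = 0.00718). CCT8 rose by 0.27 ± 0.08 (adjusted p = 0.0437), but of the 8 arrays resistant array 2 was the only one that could be left out without losing the call, with 0.24 to 0.33 over the arrays left out in turn and an adjusted p of at most 0.114. CCT3 (0.25 ± 0.08, adjusted p = 0.0601), CCT7 (0.13 ± 0.09, adjusted p = 0.307) and CCT4 (0.03 ± 0.14, adjusted p = 0.896) did not pass. CCT3 was higher in all 4 resistant arrays than in any sensitive one, and it passed under 7 of the 11 alternatives, with adjusted p-values from 0.00494 after quantile normalization (0.34) to 0.0476 with a pseudocount of 16 (0.25). It did not pass in any of the 8 fits that left out 1 array. SERPINH1, or HSP47, the procollagen chaperone, is no subunit of any of these machines. It had signals of 452, 470.2, 488 and 509.9 in resistant arrays, against 244, 172, 204 and 262 in sensitive arrays, and rose by 1.14 ± 0.14 (adjusted p = 0.000867).

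Changes of close relatives were compared directly. Of 16 pairs of relatives listed for comparison 13 could be measured, and for each the difference between the pair's log2 values on the same array was compared between groups by an exact two-sided permutation test over 70 assignments, whose smallest possible p is 0.0286. In 8 pairs the changes differed at that smallest p (0.0464 after Benjamini-Hochberg adjustment over the 13 pairs), but the pairs were listed with earlier results on these genes known, and CRYAB and HSPA4 each stand in 2 of the 8, so the count is a description of these pairs only. DNAJA1 changed by 1.94 ± 0.09 more than DNAJA2 (SE, n = 4 per group), DNAJB1 by 1.16 ± 0.22 more than DNAJB6, and HSPH1 by 1.12 ± 0.08 more than HSPA4. HSPA4L changed less than HSPA4, with a difference of -0.30 ± 0.06. FKBP4 exceeded FKBP5 by 0.62 ± 0.09 and HSPE1 exceeded HSPD1 by 1.35 ± 0.24. Against CRYAB, HSPB1 differed by 3.33 ± 0.25 and HSPB8 by 3.60 ± 0.34. The other five pairs did not pass. The differences were 0.06 ± 0.06 for HSP90AA1 minus HSP90AB1 (adjusted p = 0.405), 0.09 ± 0.16 for HSP90AA1 minus TRAP1 (adjusted p = 0.743), 0.13 ± 0.19 for DNAJB4 minus DNAJB6 (adjusted p = 0.557), -0.47 ± 0.20 for DNAJA4 minus DNAJA2 (adjusted p = 0.111) and 0.31 ± 0.12 for BAG3 minus BAG1 (adjusted p = 0.0825), each by the exact test. Averaging the probe sets of each gene moved 7 of these differences by over 1.5 times. HSPE1 minus HSPD1 became 0.64, FKBP4 minus FKBP5 0.33 and HSPA4L minus HSPA4 -0.65, which all still passed. The averages of HSPD1, FKBP4 and TRAP1 take in probe sets below the median level. HSP90AA1 minus HSP90AB1 became 0.13 and passed (adjusted p = 0.0413). BAG3 minus BAG1 became 0.06, HSP90AA1 minus TRAP1 0.42 and DNAJB4 minus DNAJB6 0.20, and none of these passed by the exact test.

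Several probe sets were available for many genes. In a fit over all 54613 probe sets, in which 19.5% were called, 16 of the 30 members with another probe set above the median level were called by the brightest one. In 14 of these 16 at least 1 other bright probe set was called in the same direction, in 11 all of them were, and in 0 of the 16 was a bright probe set called in the opposite direction. HSPA14 and HSPB8 had no second call. In members whose brightest probe set was not called, another bright one rose for HSP90AA1 (0.41), DNAJA2 (0.56) and BAG5 (0.50). Another bright one fell for HSPA9 (-0.44). For HSPA4L, FKBP5, HSPA9 and CCT8 the brightest probe set was not called in this fit, although it was in the fit over genes. This fit tests more features, and its standard errors differ from those of the fit over genes. The standard errors given for probe sets other than the brightest come from this fit. For 13 of the 45 genes only probe sets whose suffix marks possible cross-hybridisation exist here, among them DNAJB1, BAG3, HSPE1 and STIP1.

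**Figure D4:**
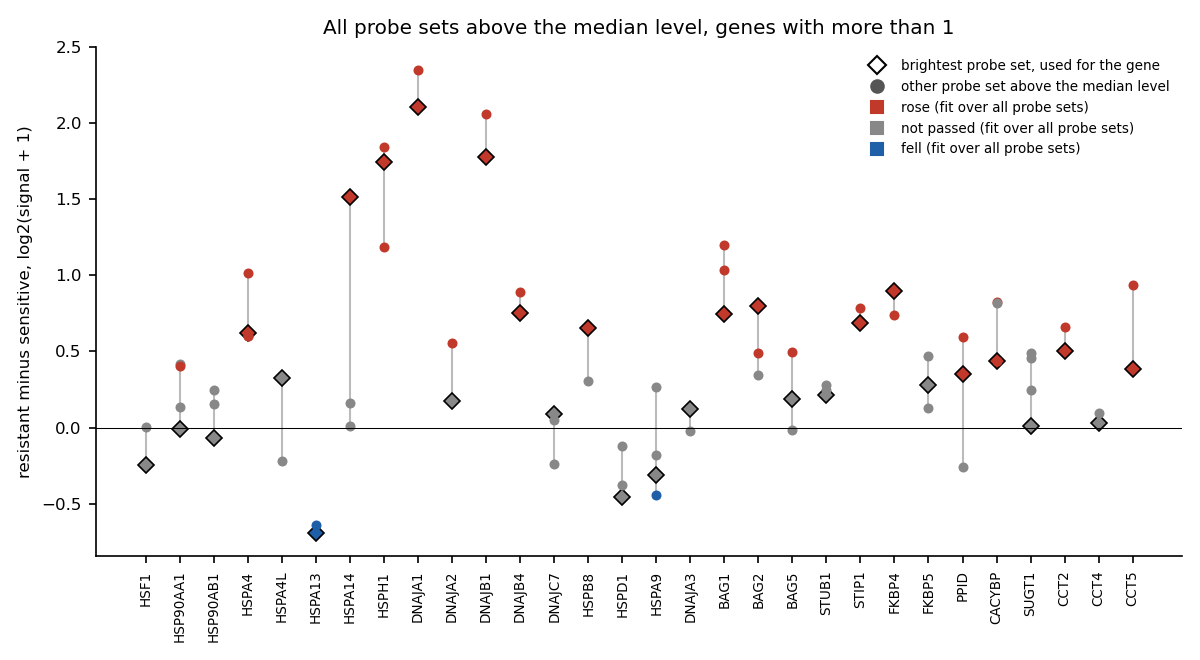
Difference, resistant minus sensitive in log2(signal + 1) units, of every probe set above the median level for the 30 genes with more than 1, coloured by its call in the fit over all probe sets. DNAJA1, DNAJB1, HSPH1, HSPA4, BAG1 and HSPA13 are called the same way by all, while HSPA14 rises in 1 of 3 and HSPA4L and PPID have probe sets on both sides of 0.

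Complete heat shock elements were found in members that rose and in members that did not pass. A 3-unit element, as printed above, was present for 7 of the 40 members with a window (17.5%), against 89 of 15384 genes tested with a window (0.579%), and in 7 of 59 windows against 172 of all 35116 (0.490%). DNAJA1, CHORDC1, SERPINH1 and DNAJB6, with the element at the outermost start, rose. HSP90AA1, HSP90AB1 and HSPD1, with the element at another annotated start and with signals in the top range, did not pass. Neither feature was tested, and the outermost start need not be the main one of a gene. The shorter 2-unit element, GAANNTTC or TTCNNGAA, each its own reverse complement and contained in every 3-unit match, was present for 19 of the 40 members (47.5%), against 2309 of the 15384 genes tested with a window. It was found for 12 of 24 members that rose, 6 of 14 that did not pass and 1 of 2 that fell. HSPH1, HSPA2 and BAG3 rose without a match in these windows. The HSPD1 elements also lie upstream of HSPE1, which starts at position 197500379 and rose, but no match was counted for HSPE1 itself. Among the other 82 genes tested that carry a 3-unit element, 13 rose (15.9%) and 8 fell (9.76%), with a median change of -0.10. The share that rose is near the 14.7% of all genes, of which 15.6% fell.

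**Figure D5:**
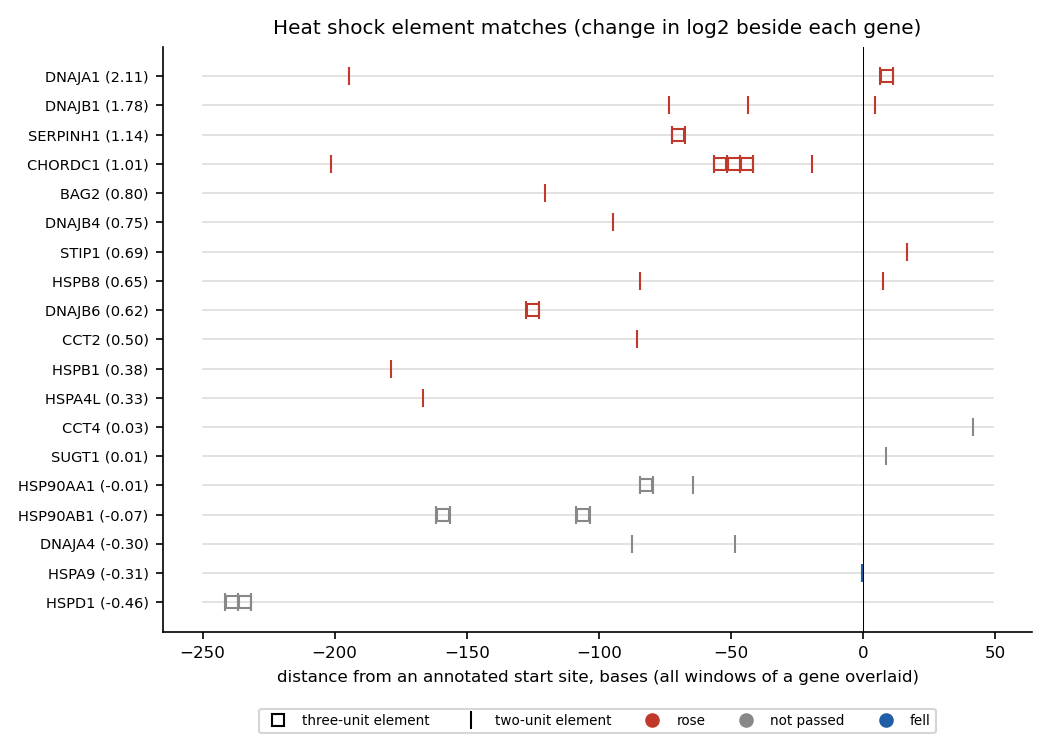
Positions of heat shock element matches relative to an annotated start site, in bases, for the 19 genes with a match, ordered by change with the greatest rise at the top. Squares are 3-unit and ticks 2-unit elements, and both kinds occur at genes that rose and at genes that did not pass.

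Further genes of the folding network were read from lists of relatives and partners. Of 100 measured genes outside the group, 29 rose, 18 fell and 53 did not pass, with a median change of 0.12. These counts stand beside 14.7% that rose and 15.6% that fell among all genes, and 23.3% and 23.9% among genes above the median level, so several of the lists lie near the background. Among other HSP70 and HSP90 genes 4 of 7 rose: the strictly stress-induced HSPA6 by 1.32 ± 0.35 (signals of 39.8 to 50.9 in resistant and 8.29 to 27.7 in sensitive arrays), HSPA12A by 0.48 ± 0.15, and the endoplasmic reticulum chaperones HSP90B1 and HSPA5 by 0.37 ± 0.07 and 0.37 ± 0.10. Of 32 further J-domain proteins 9 rose and 7 fell, led by falls of DNAJB2 (-2.25 ± 0.14) and DNAJC6, the auxilin of clathrin uncoating (-1.34 ± 0.11), and by rises of DNAJC12 (1.18 ± 0.08) and DNAJC3, an inhibitor of eIF2-alpha kinases (0.99 ± 0.11). Of 21 further co-chaperones 4 rose and 4 fell, with SGTA at 1.16 ± 0.15, TTC4 at 0.65 ± 0.07, PPP5C at 0.63 ± 0.08 and PIH1D1 at -0.69 ± 0.07. Prefoldin, tubulin cofactor and chaperonin partner genes rose in 5 of 17 cases with 0 falls, among them URI1 (0.86 ± 0.09), the chaperonin subunit CCT6A (0.83 ± 0.16), TBCC (0.67 ± 0.14) and PFDN1 (0.58 ± 0.12). None of 7 further small heat shock and HSF-related genes passed by limma. An unadjusted p below 0.05 was reached by 2 of them, HSPB6 (0.23 ± 0.08, adjusted p = 0.0660) and HSBP1 (0.22 ± 0.09, adjusted p = 0.121). In a list of other HSF1 targets and stress genes 8 of 17 rose and 7 fell, among them IER5 (1.48 ± 0.10), HSPBAP1 (0.93 ± 0.18) and GADD45B (-1.17 ± 0.10).

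Beyond the top signal range described above, the arrays were compared by their overall levels and controls. Median signals were 32.6 to 34.5 on resistant and 33.4 to 37.5 on sensitive arrays, and an array correlated with its own group at 0.955 to 0.965 and with the other at 0.937 to 0.942. The 3′ minus 5′ difference of the ACTB control probe sets, a measure of RNA integrity and labelling, was 0.10 to 0.13 on resistant and 0.23 on every sensitive array, while that of GAPDH overlapped (-0.22 to -0.06 and -0.15 to -0.13). The part of the ACTB difference in the chaperone changes was not tested. With the GAPDH difference as a covariate 26 members rose and 3 fell, and the share of all genes called in that fit is not given here. Because the GAPDH values overlap between groups and the ACTB values do not, this fit cannot account for the ACTB difference. The epithelial keratins KRT8 and KRT18 were at 11.36 and 13.12 in resistant and 11.41 and 13.18 in sensitive cells, KRT19 fell by 1.24, and EPCAM and CDH1 lay below the median probe set in both. The log2 of the summed marker signals was 13.70 to 13.97 on resistant and 14.05 to 14.27 on sensitive arrays for 5 epithelial genes, of which 1 fell, and 7.71 to 8.08 and 8.25 to 8.75 for 5 fibroblast genes, of which LUM (-3.27) and PDGFRB (-1.12) fell. For 4 leukocyte genes it was at most 7.27 on resistant and 7.15 on sensitive arrays, for 4 endothelial genes 5.93 to 6.87 and 6.42 to 6.83, and none of these 8 passed by limma or had an unadjusted p below 0.05. No marker was at a signal of 0, and the part of these markers in the chaperone changes was not tested.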

How the data were processed

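Total RNA was extracted with Trizol and labelled with biotin, per the labels' protocols, for 8 arrays whose probe sets carry Affymetrix names. The values the authors deposited are linear intensity signals of 54675 probe sets. RMA is listed, without a version, in the submitters' processing notes, but the values go below 1 and have a trimmed mean of 200 on every array (2% removed at each end), so the step that made them is not settled. They were used as log2(signal + 1) with no further scaling, which understates changes of dim genes. The number of arrays limits the precision.

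The supplied platform annotation gave 1 symbol to 41097 probe sets and several to 1801, which were not named, and 11777 are not listed there. Symbols were updated through RefSeq (GRCh38.p14) for 41043. The brightest probe set stood for each of 19775 genes. Resistant and sensitive arrays were compared with limma 3.58.1 in R 4.3.3, with Benjamini-Hochberg adjustment over all genes, and the fit was tested on simulated data. Single differences used exact permutation tests.

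The members, gene lists and pairs were chosen with earlier results of these data known. Any member could be named, and of each further list up to 4 genes that passed, by size of change (where none did, the 2 lowest in p). Alternatives comprised a replicate block, a pseudocount of 16, median centring, quantile and cyclic loess normalization, other probe set choices, dim genes left out, another prior, array weights, a GAPDH covariate and leaving out each array.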

Additional observations from a re-analysis of the deposited data

Results flagged for a closer look

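In 11 of 90 groups of 4 arrays, 1 array stood apart from the other three by Dixon's criterion, where chance flags about 1 group in 20. Values are log2(signal + 1). Resistant array 4 was the high one for 5 genes: CCT4 (13.74, the others at 13.21 to 13.26), HSP90AB1 (13.80, the others at 13.31 to 13.39), CCT2 (13.20, the others at 12.92 to 12.95), CCT7 (12.61, the others at 12.38 to 12.42) and HSPB1 (11.70, the others at 11.42 to 11.47). Sensitive array 1 was the high one for HSPD1 (14.56, the others at 14.22 to 14.24) and HSP90AB1 (13.66, the others at 13.48 to 13.50). Resistant array 3 was high for DNAJA2 (10.70, the others at 10.42 to 10.45). Sensitive array 2 was low for HSF1 (7.32, the others at 7.79 to 7.87) and slightly high for STIP1 (9.89, the others at 9.85). Sensitive array 4 was slightly high for CCT2 (12.53, the others at 12.49).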

How the results depend on the processing

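The count of members that rose lay between 22 and 29 in every alternative but one, and the count that fell between 2 and 4 in all. With only probe sets that carry no cross-hybridisation suffix, 32 members could be measured, 11 rose, the median change was 0.27 and 14 had groups that do not overlap. Median centring moved the median change to 0.43. It shifts the change of every gene by the same amount, so the members' distance from the median of all genes stays the same. Leaving out each array gave 22 to 25 rises, 2 to 4 falls, medians of 0.33 to 0.36 and 31 to 33 members whose groups do not overlap. A smaller group separates from the other more easily, so the last range is not comparable with the main count. The shares of all genes called or separated under the alternatives are not given here, so these counts describe the members only.

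The direction turned for HSP90AA1 after median centring (0.061), quantile normalization (0.33), cyclic loess normalization (0.044) and with the GAPDH covariate (0.049), with all probe sets averaged (0.24) and without suffixed probe sets (0.13), and it ran from -0.16 to 0.066 on leaving out each array. HSP90AB1 turned after median centring (0.0042), quantile normalization (0.16) and with all probe sets averaged (0.11). With all probe sets averaged DNAJC7 turned to -0.034 and HSPD1 to 0.26. The HSPD1 average takes in dim probe sets at mean log2 levels of 3.88 and 3.55, which changed by 0.83 and 1.42. Its probe sets above the median level changed by -0.46, -0.38 and -0.12. Without suffixed probe sets HSPA9 turned to 0.26 (adjusted p = 0.0461) and PPID to -0.26. SUGT1 turned to -0.0088 after quantile normalization and to -0.029 with array weights, CCT4 to -0.024 with array weights, and on leaving out each array SUGT1 ran from -0.075 to 0.087, CCT4 from -0.094 to 0.083 and PTGES3 from -0.0023 to 0.067. The cause of these turns was not tested. Cyclic loess normalization and the alternatives for groups that do not overlap were chosen after seeing the data.

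No label pairs arrays with equal replicate numbers. The correlation of same-numbered arrays' deviations from their group means, over all genes, was -0.03 to 0.01. Of these genes 8117 lay below a mean log2 level of 5, and brighter genes alone were not tested, so a pairing is not settled. With the replicate number as a block 22 members rose and 2 fell, and the share of all genes called in that fit is not given here. Dim signals limit the size of the CRYAB and HSPA2 changes.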
